A study of Mus musculus with 64 samples.

Results

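The 38 genes described here encode subunits of potassium channels, chosen as a named list of gene symbols that was looked up by Ensembl ID in the hippocampal count tables of 2 cohorts of mice. They were 38 of 32821 genes with at least 1 count in the hippocampus of the acute cohort and of 31882 in that of the continuous cohort. Potassium channels let potassium ions leave the cell, which returns the membrane to rest after an action potential and sets how easily a neuron fires. Voltage-gated (Kv) channels open on depolarization, inward rectifiers (Kir) and 2-pore channels (K2P) hold the resting potential, and calcium-activated channels follow the calcium that enters during spikes. In hippocampal pyramidal cells, the A-type current of Kv4 with its KChIP partners, the M-current of Kv7 and the afterhyperpolarization carried by SK channels are known to shape firing, and Kir4.1 of astrocytes takes up potassium released by neurons.

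Mice were male littermates, 10 to 18 weeks old, from a cross of C57BL/6J with 129sv. AS mice (Ube3a m-/p+) carried on the maternal chromosome the Ube3atm1Alb allele, in which exon 5 of Ube3a is deleted, and so lacked the ubiquitin ligase UBE3A in neurons, while WT mice carried none. Because the paternal copy is silenced in mature neurons only, other cells of AS mice still make UBE3A. The acute cohort held 6 mice in each of 4 groups (WT or AS, vehicle or CORT), collected 3 h after a subcutaneous injection of vehicle or of 3 mg/kg corticosterone (CORT), the main glucocorticoid of mice. The continuous cohort was collected on day 6 after implantation of a pellet with 20 mg CORT or of a cholesterol vehicle pellet, and held 4 WT vehicle, 5 WT CORT, 4 AS vehicle and 5 AS CORT mice after 2 mice, H9 and H13, were left out. These had been set aside as technical outliers before the comparisons of the study. Each library is the left hippocampus of 1 mouse, so p-values measure the spread between mice.

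Libraries held 21917187 to 24235835 reads in the acute and 21779535 to 24716292 in the continuous cohort, so that 3 counts, the floor of detection, stood for 0.143 to 0.160 and 0.135 to 0.158 CPM (counts scaled to library size and TMM-normalized, with the floor covering counting error only). The treatment labels were checked with Fkbp5, which glucocorticoids induce: in the acute cohort it lay between 58.8 and 70.8 CPM in WT vehicle and between 103 and 128 CPM in WT CORT mice, and between 48.6 and 60.5 CPM in AS vehicle and 113 and 126 CPM in AS CORT mice. Ube3a itself gave no check of genotype, since counts of the whole gene differed by -0.06 on the log2 scale between AS and WT vehicle mice of the acute cohort (adjusted p = 0.895, edgeR). The acute libraries fall into 2 sets by how many reads HTSeq-count dropped because their alignment quality was low. The 16 mice H1 to H16 had 1877 to 2237 of them, and the 8 mice H17 to H24 had 2640 to 2850. The upper set holds all 6 AS CORT mice and the AS vehicle mice H17 and H18, and no WT mouse. Effects of CORT in AS mice and of genotype under CORT therefore move with this division, and those of the 38 genes are given below also with a covariate for it.

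Start regions are shown for 5 members that rose (Kcna5, Kcnab2, Kcnip2) or fell (Kcnip3, Kcna6) with CORT averaged over genotypes in at least 1 cohort, because the glucocorticoid receptor acts on genes through sites in DNA. They were chosen after their values were seen. Each is 300 bases of RefSeq sequence on GRCm38.p6, from 250 bases before to 50 bases after the transcription start nearest to the start of the gene, read 5′ to 3′ on the minus strand of the chromosome, with CG dinucleotides in capitals.
Kcna5, chr6:126535506-126535805: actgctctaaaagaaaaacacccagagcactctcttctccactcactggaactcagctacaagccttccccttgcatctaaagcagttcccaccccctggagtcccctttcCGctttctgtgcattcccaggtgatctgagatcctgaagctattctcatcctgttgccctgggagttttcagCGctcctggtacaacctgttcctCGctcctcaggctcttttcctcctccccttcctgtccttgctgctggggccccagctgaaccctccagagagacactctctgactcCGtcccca
Kcnab2, chr4:152477500-152477799: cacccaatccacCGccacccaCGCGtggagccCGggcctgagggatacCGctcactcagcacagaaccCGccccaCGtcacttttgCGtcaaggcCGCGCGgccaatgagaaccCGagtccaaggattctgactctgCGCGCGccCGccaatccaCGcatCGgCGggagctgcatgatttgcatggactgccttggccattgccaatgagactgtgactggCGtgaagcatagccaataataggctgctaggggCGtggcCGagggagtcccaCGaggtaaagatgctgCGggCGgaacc
Kcnip2, chr19:45816014-45816313: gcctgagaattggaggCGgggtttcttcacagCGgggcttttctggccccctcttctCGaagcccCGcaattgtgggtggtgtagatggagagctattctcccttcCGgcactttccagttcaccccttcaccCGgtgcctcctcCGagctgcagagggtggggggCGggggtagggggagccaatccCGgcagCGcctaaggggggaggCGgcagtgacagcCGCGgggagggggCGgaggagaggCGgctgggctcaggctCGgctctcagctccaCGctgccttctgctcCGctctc
Kcnip3, chr2:127522045-127522344: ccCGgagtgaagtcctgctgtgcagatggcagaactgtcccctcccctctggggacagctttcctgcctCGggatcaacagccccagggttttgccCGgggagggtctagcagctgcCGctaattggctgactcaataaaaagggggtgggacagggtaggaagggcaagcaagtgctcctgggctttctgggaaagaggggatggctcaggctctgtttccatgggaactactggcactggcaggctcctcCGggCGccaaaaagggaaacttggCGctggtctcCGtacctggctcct
Kcna6, chr6:126740625-126740924: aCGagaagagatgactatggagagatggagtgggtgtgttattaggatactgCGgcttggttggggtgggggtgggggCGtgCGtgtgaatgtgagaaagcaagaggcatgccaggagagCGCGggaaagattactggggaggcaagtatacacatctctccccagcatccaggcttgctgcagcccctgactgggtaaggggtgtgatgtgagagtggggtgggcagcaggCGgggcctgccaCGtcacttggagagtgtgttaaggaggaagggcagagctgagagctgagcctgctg
The windows hold 4 CG dinucleotides in Kcna5, 25 in Kcnab2, 18 in Kcnip2, 8 in Kcnip3 and 8 in Kcna6, against a median of 7 over all 32851 RefSeq windows, of which 94.6% hold at least 1. Their GC content was 55.0%, 62.7%, 67.0%, 60.3% and 58.3% in the same order, against a median of 52.7%. The half-site of the glucocorticoid receptor, AGAACA or TGTTCT when read on both strands, was in none of these 5 windows. Of the 38 genes, 30 were matched to 51 windows, and 10 of the 51 (19.6%) held a half-site, close to the 6233 windows (19%) among all. These belonged to Kcnab1, Kcnc2, Kcnip4, Kcnj10, Kcnj6 and Kcnk2. The full site, 2 half-sites facing each other across 3 bases, was in 0 of the 51 and in 3 windows overall. No match says only that these letters are absent from the window.

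All 38 genes were expressed and passed the filter on low counts in both cohorts. Their median levels over the 42 libraries, in RPKM (CPM per kilobase of exon, the scale on which genes can be compared), ran from 0.756 for Kcna5 to 202.5 for Kcnab2. The top 2 genes encode auxiliary subunits: Kcnab2, which encodes the cytoplasmic Kvβ2 subunit of Kv1 channels, ranged from 166 to 240 RPKM, and Kcnip2, which encodes the Kv4 partner KChIP2, from 60.6 to 117 RPKM. Next came the K2P channel TWIK-1 (Kcnk1, median 43.5 RPKM), the astrocytic Kir4.1 (Kcnj10, 39.8 RPKM), Kir2.3 (Kcnj4, 35.3 RPKM) and the Kv4.2 pore (Kcnd2, 32.3 RPKM). Lowest were the Kv1.5 pore (Kcna5), the Kv2.2 pore (Kcnb2, 1.62 RPKM) and the SK3 channel (Kcnn3, 2.40 RPKM). Of the 37 neighbouring pairs in this order, only Kcnab2 and Kcnip2 had ranges that did not overlap. Kcna5 had as few as 19 counts in a library and Kcna3 as few as 77, while the other members had at least 208.

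Summed over the listed members of each family, both Kvβ subunits reached a median of 220 RPKM and the 4 KChIP genes 117 RPKM. The 6 Kv1 pores summed to 59.3 RPKM, the 3 Kir3 (GIRK) genes to 57.8, the 3 other Kir genes to 80.9, the 3 K2P genes to 56.5, the 3 Kv3 genes to 53.9 and the 2 Kv4 pores to 43.2 RPKM. The EAG genes (36.6 RPKM), the calcium- or sodium-activated channels (34.3 RPKM), Kv7 (31.4 RPKM) and Kv2 with its silent partner Kcnv1 (10.5 RPKM) were lower. Within Kv1, Kcna1 (18.4 RPKM), Kcna2 (17.6 RPKM) and Kcna6 (12.1 RPKM) led, and Kcna4 (6.06 RPKM), Kcna3 (3.31 RPKM) and Kcna5 followed. The member that varied most between libraries was Kcnh7, which encodes Kv11.3, with 1.11 to 7.31 RPKM.

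**Figure D1:**
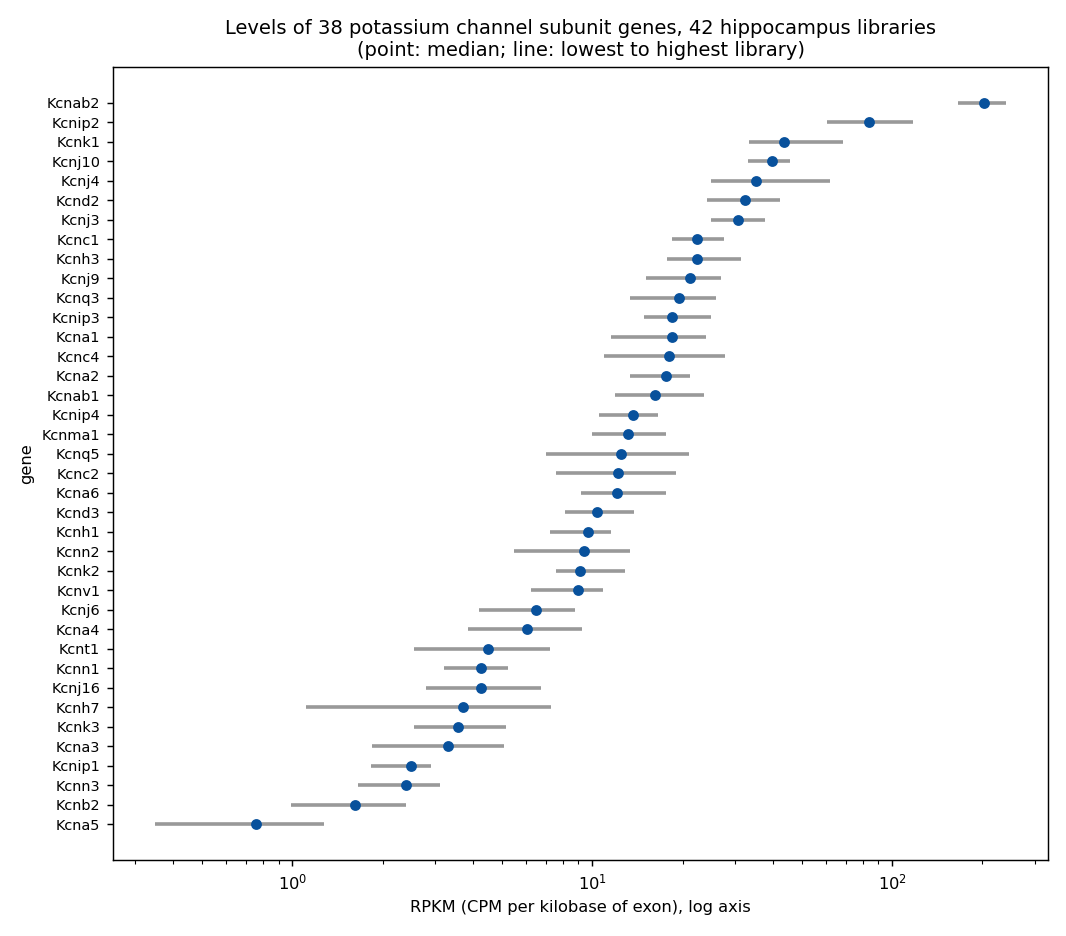
Levels of the 38 genes in 42 hippocampal libraries on a log axis of RPKM, with the median as a point and the lowest to highest library as a line. Kcnab2 stands apart at 166 to 240 RPKM, and the ranges of all other neighbouring genes overlap.

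Several members lie side by side in the genome. Kcna5, Kcna1 and Kcna6 follow each other on chromosome 6 with gaps of 105 and 61.9 kb (GRCm38), Kcna3, Kcna2 and Kcnc4 on chromosome 3 with gaps of 63.1 and 323 kb, and Kcnj9 and Kcnj10 are 11.9 kb apart on chromosome 1. Kcna5 was higher and Kcna6 lower in CORT mice of all 4 genotype and cohort combinations, as described below. Exons of 17 members overlap those of another gene, in 18 cases on the opposite strand and in 1 case on the same strand. Whether counting used strand is not stated, so reads of such pairs may be mixed. The longest of these overlaps with a member that was called was that of Kcna6 with the antisense gene Gm26673 (2355 bases), which ranged from 0.414 to 2.46 CPM over the libraries while Kcna6 ranged from 54.6 to 105 CPM.

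The first question was which channel genes respond within hours to a single rise of CORT. In WT mice, 0 of the 38 genes passed an adjusted p of 0.05 in edgeR, where 1.48% of all 14611 genes tested did, and DESeq2 and limma-voom also called 0. An unadjusted p under 0.05 was found for 5 of the 38 and for 10.7% of all genes. The median log2 fold change of the 38 was -0.04, against -0.0023 for all genes, with a range from -0.35 (Kcnh7, adjusted p = 0.483) to 0.27 (Kcna5, adjusted p = 0.631).

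In AS mice, 7 of the 38 genes (18.4%) changed 3 h after CORT, a share near the 17.9% of all genes tested. Kcna5, Kcnk1 and Kcnj3 rose, where 8.25% of all genes did, and Kcna6, Kcnip3, Kcnc1 and Kcnj10 fell, where 9.62% did. The median of the 38 was -0.08 and that of all genes 0.01 on the log2 scale. With the covariate for low-quality reads, 0 of the 38 were called (edgeR), against 1.03% of all genes. Also 0 were called when the AS vehicle group was reduced to H17 and H18, against 0.89% of all genes. When it was reduced to H13 to H16, 9 were called, these 7 among them, against 30.3% of all genes.

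Among the pore subunits of Kv1, Kcna6 (Kv1.6, a delayed rectifier of neurons) had 64.8, 77.2 and 88.1 CPM as the lowest, median and highest of 6 AS vehicle mice and 54.6, 59.99 and 63.1 CPM in AS CORT mice. All AS CORT mice were below all AS vehicle mice. The gene fell by 23% (log2 -0.38, SE 0.0679, adjusted p = 0.000642 in edgeR), and the difference was -0.30 with the covariate (adjusted p = 0.1796). Kcna5 (Kv1.5) had 1.19, 1.92 and 2.28 CPM in AS vehicle and 2.24, 2.76 and 3.41 CPM in AS CORT mice. Only the highest vehicle mouse, H17, overlapped the CORT mice. Kcna5 rose by 51.5% (log2 0.60, SE 0.176, adjusted p = 0.0208), and this call was lost without H14, H16 or H20 and with the covariate (log2 0.45, adjusted p = 0.707).

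The Kv4 partner KChIP3 is encoded by Kcnip3, a calcium-binding protein also known as DREAM. It had 72.7, 79.2 and 88.3 CPM in AS vehicle and 52.6, 61.0 and 67.5 CPM in AS CORT mice. The groups did not overlap, and Kcnip3 fell by 23.5% (log2 -0.39, SE 0.0791, adjusted p = 0.00188). Its estimate was as large with the vehicle group reduced to H17 and H18 (-0.39, adjusted p = 0.119) and with the covariate (-0.39, adjusted p = 0.110), although neither passed. The other KChIP genes did not pass, with log2 differences of -0.10 for Kcnip1, -0.06 for Kcnip2 and 0.16 for Kcnip4.

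Kcnc1, which encodes the fast Kv3.1 channel of fast-spiking interneurons, had 224, 238 and 261 CPM in AS vehicle and 182, 205 and 208 CPM in AS CORT mice. All CORT mice were lower than all vehicle mice, and the gene fell by 16.5% (log2 -0.26, SE 0.0596, adjusted p = 0.00436). H17 (224 CPM) and H18 (225 CPM) were the lowest of the vehicle mice, and the difference was -0.16 with the covariate (adjusted p = 0.612). It also shrank to -0.13 (adjusted p = 0.0682) once trends of each library on GC content and transcript length were removed. The other listed Kv3 genes had log2 differences of -0.21 (Kcnc2) and -0.08 (Kcnc4) and did not pass.

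Kcnj10 encodes Kir4.1, the main potassium channel of astrocytes, and had 197, 230 and 243 CPM in AS vehicle and 179, 196 and 211 CPM in AS CORT mice. The vehicle mice that overlapped the CORT mice were H17 and H18. Kcnj10 fell by 13.7% (log2 -0.21, SE 0.0660, adjusted p = 0.0273), a call lost in 5 of the 24 fits that left out 1 mouse, and the difference was -0.07 with the covariate (adjusted p = 0.946). Kcnj3, the GIRK1 subunit through which G protein-coupled receptors hyperpolarize neurons, had 147, 160 and 172 CPM in AS vehicle and 164, 186 and 196 CPM in AS CORT mice. These groups overlapped, and Kcnj3 rose by 13.9% (log2 0.19, SE 0.0631, adjusted p = 0.0400). The call was lost in 9 of the 24 fits that left out 1 mouse and without the filter on low counts (0.18, adjusted p = 0.0959). It was also lost without the trends on GC content and length (0.14, adjusted p = 0.103) and with the covariate (0.13, adjusted p = 0.813).

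Kcnk1 (TWIK-1, a leak channel) had 78.3, 87.4 and 98.8 CPM in AS vehicle and 97.3, 108 and 126 CPM in AS CORT mice. Only 1 vehicle mouse, H17, overlapped the CORT mice, and the gene rose by 25.4% (log2 0.33, SE 0.109, adjusted p = 0.0392). The call was lost in 8 of the 24 fits that left out 1 mouse and with the covariate, where the difference was 0.31 (adjusted p = 0.640). The other listed K2P genes, Kcnk2 (0.15) and Kcnk3 (-0.22), did not pass. No gene of Kv2, Kv7, EAG, Kv4 or the Kvβ subunits was called after acute CORT in either genotype.

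**Figure D2:**
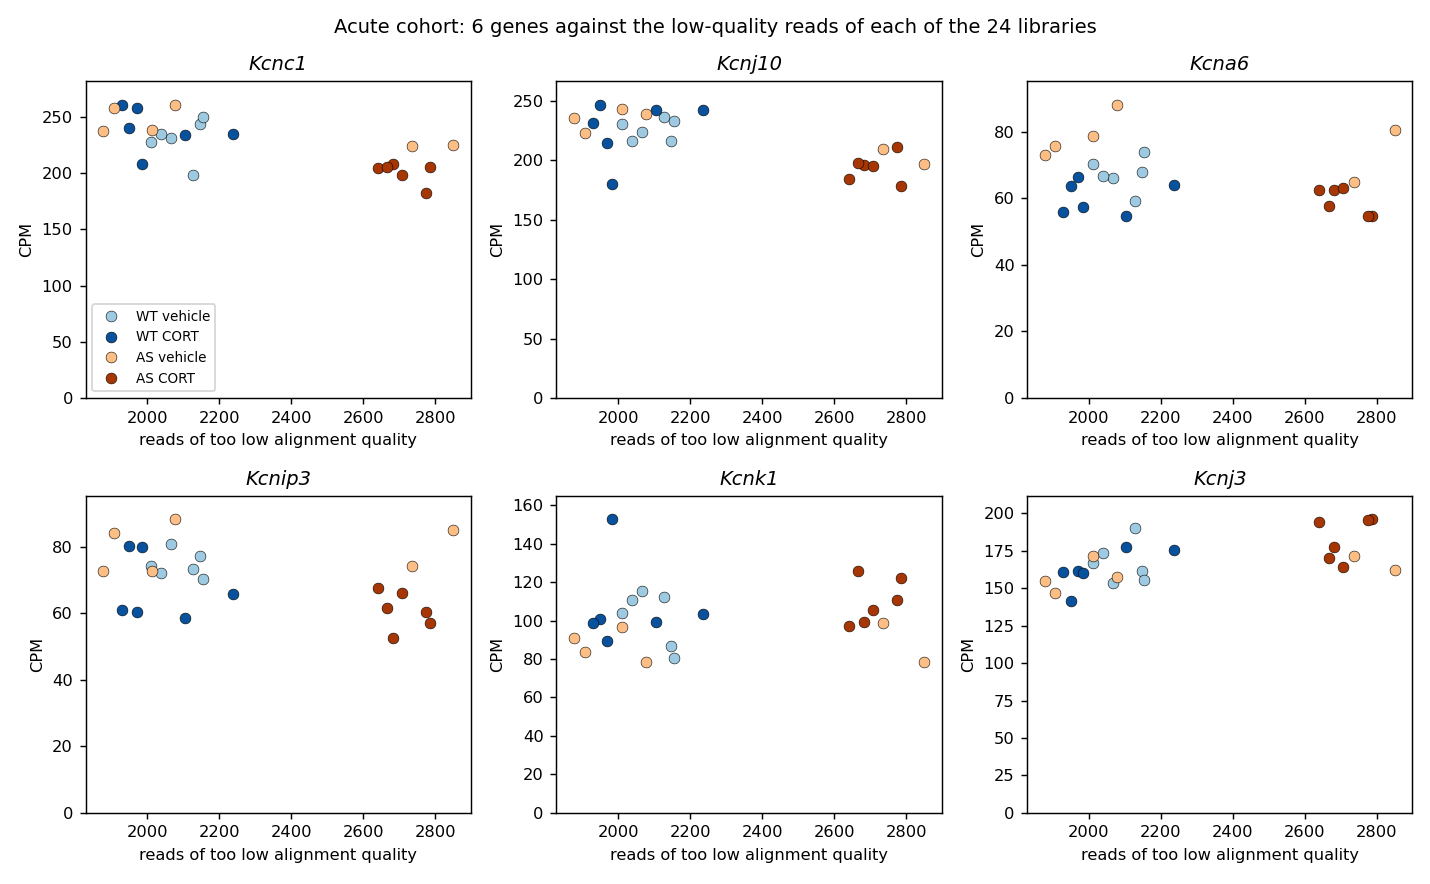
CPM of 6 members called for CORT in AS mice (vertical axes from 0) against the number of reads dropped for low alignment quality, with 1 point for each of the 24 acute libraries and a colour for each group. All AS CORT mice and 2 AS vehicle mice lie at 2640 to 2850 reads and the other libraries at 1877 to 2237, and the 2 AS vehicle mice lie within the AS CORT mice for Kcnj10 but above them for Kcnip3.

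Because the AS groups move with the division of the libraries, the CORT effect averaged over both genotypes, an analysis added after the data were seen, was also computed. Then 3 of the 38 genes (7.89%) were called, against 7.02% of all genes. Kcna5 rose by 35% (log2 0.43, SE 0.125, adjusted p = 0.0327), where 3.52% of all genes rose, and this call was lost in 9 of the 24 fits without 1 mouse. Kcna6 fell by 16.9% (log2 -0.27, SE 0.0480, adjusted p = 0.000481) and Kcnip3 by 16.7% (log2 -0.26, SE 0.0559, adjusted p = 0.00269), where 3.5% of all genes fell. With the covariate, 2 of the 38 were called, against 3.21% of all genes: Kcna6 (log2 -0.23, adjusted p = 0.0224) and Kcnip3 (-0.26, adjusted p = 0.0272). Without the covariate, both also passed in each of the 24 fits without 1 mouse.

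In WT mice alone, Kcna6 had 59.1, 67.3 and 73.9 CPM with vehicle and 54.8, 60.4 and 66.2 CPM with CORT, and Kcnip3 had 70.5, 73.8 and 80.8 CPM and 58.7, 63.5 and 80.4 CPM. For Kcna6, 3 of the 6 CORT mice were below all vehicle mice, and for Kcnip3 4 were, while H8 and H11 were as high as the vehicle mice. The differences of -0.16 (adjusted p = 0.378) and -0.14 (adjusted p = 0.551) did not pass. For Kcna5, WT vehicle mice had 1.12, 2.04 and 2.27 CPM and WT CORT mice 1.86, 2.08 and 3.18 CPM, and the groups overlapped.

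The second question was whether AS and WT mice differ in these genes. With vehicle, 0 of the 38 genes passed in the acute cohort (edgeR, 0 also by DESeq2 and limma-voom), where 0.157% of all genes did, and 6 of the 38 had an unadjusted p under 0.05, as did 9.54% of all genes. With the AS vehicle group reduced to H17 and H18, 1 was called (Kcnip2), against 1.4% of all genes. After acute CORT, 6 of the 38 genes (15.8%) differed between AS and WT mice, against 24.9% of all genes. Kcna3 was higher in AS mice, where 11.7% of all genes were, and Kcnip2, Kcnn1, Kcnc1, Kcnj10 and Kcnn2 were lower, where 13.2% were. With the covariate, 0 of the 38 and 0% of all genes passed. Among CORT mice the division coincides with genotype, and the covariate is estimated from the AS vehicle mice alone. The differences of Kcnip2 and Kcnj10 then came near 0, those of Kcnc1 and Kcnn2 shrank, and those of Kcna3 (0.45) and Kcnn1 (-0.30) were 0.41 and -0.23, none of the 6 passing.

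Kcnip2 had the largest of the 5 negative differences, with 307, 353 and 407 CPM in WT CORT and 237, 265 and 284 CPM in AS CORT mice. The groups did not overlap, and the difference was -25.6% in AS mice (log2 -0.43, SE 0.0877, adjusted p = 0.00140). AS vehicle mice were split in the same way: H13 to H16 had 307, 270, 314 and 306 CPM and H17 and H18 had 239 and 210 CPM. In a comparison of these vehicle mice added after the data were seen, 8.23% of all genes differed and Kcnip2 was the 1 member called (log2 -0.41, SE 0.107, adjusted p = 0.0180). With the covariate, the difference between AS and WT CORT mice in Kcnip2 was -0.01.

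Kcnn1 (SK1) had 18.9, 20.1 and 20.97 CPM in WT CORT and 14.7, 16.4 and 18.2 CPM in AS CORT mice. Its groups did not overlap, and it was lower by log2 -0.30 (SE 0.0615, adjusted p = 0.00142), which became -0.14 without the trends on GC content and length (adjusted p = 0.0744) and -0.23 with the covariate (adjusted p = 0.908). The related SK2 gene Kcnn2, whose channels carry the medium afterhyperpolarization, had 68.3, 89.2 and 99.9 CPM in WT CORT and 70.0, 74.9 and 83.7 CPM in AS CORT mice. The WT mouse H8 was below all AS mice and 5 WT mice were above all AS mice, and the difference (log2 -0.20, SE 0.0704, adjusted p = 0.0425) was lost in 12 of the 24 fits without 1 mouse. It was -0.10 without the trends on GC content and length (adjusted p = 0.341) and -0.12 with the covariate (adjusted p = 0.948). Without the filter on low counts it was -0.20 and did not pass (adjusted p = 0.0697). Kcna3 (Kv1.3), a low member, had 3.71, 6.29 and 7.53 CPM in WT CORT and 7.26, 7.90 and 9.63 CPM in AS CORT mice. The 2 lowest AS mice overlapped the highest WT mouse. Kcna3 was higher in AS mice by log2 0.45 (SE 0.131, adjusted p = 0.0147), a call lost without the WT mouse H11 (0.36, adjusted p = 0.0547). With the covariate its difference was 0.41 (adjusted p = 0.938).

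Kcnc1 had 208, 237 and 261 CPM in WT CORT and 182, 205 and 208 CPM in AS CORT mice, a difference of log2 -0.25 (SE 0.0596, adjusted p = 0.00381). It was -0.12 without the trends on GC content and length (adjusted p = 0.0935) and -0.10 with the covariate (adjusted p = 0.941). Kcnj10 had 180, 237 and 247 CPM in WT CORT and 179, 196 and 211 CPM in AS CORT mice, a difference of log2 -0.22 (SE 0.0660, adjusted p = 0.0158). In both genes the WT mouse H8 was the lowest of its group and within the range of the AS mice. With the covariate, the difference in Kcnj10 was -0.01.

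The interaction compares the CORT effect in AS mice with that in WT mice. It was called for 1 of the 38 genes (2.63%), against 4.49% of all genes, of which 3.06% had a negative interaction as it did. Kcnc1 had 199, 233 and 250 CPM in WT vehicle mice and 208, 237 and 261 CPM in WT CORT mice, so its effect was 0.05 in WT and -0.26 in AS mice on the log2 scale. The difference was -0.31 (SE 0.0843, adjusted p = 0.0399). It was lost in 16 of the 24 fits without 1 mouse, without the filter on low counts, without the trends on GC content and length (-0.14), and with the covariate, under which 0 members and 0.00684% of all genes passed.

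**Figure D3:**
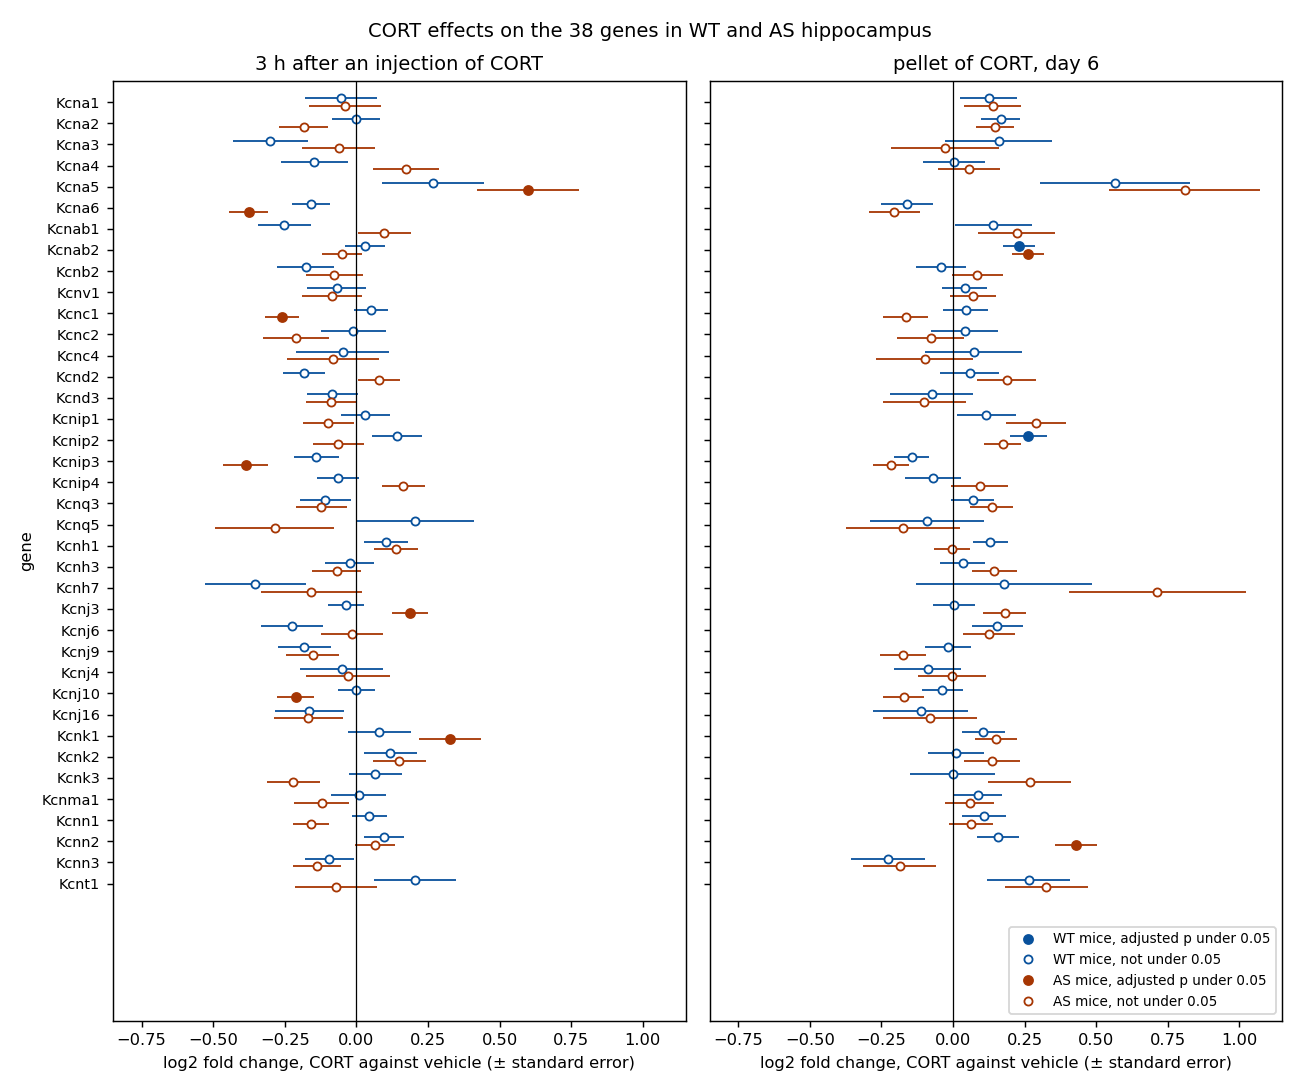
Log2 fold changes of the 38 genes with CORT against vehicle, with the standard error as a bar, in WT (blue) and AS (brown) mice of the acute (left) and continuous (right) cohorts. Filled points mark an adjusted p under 0.05 in edgeR: 7 in acute AS mice, 0 in acute WT mice, and 2 in each genotype of the continuous cohort.

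The third question was which channel genes differ between mice with a CORT and a vehicle pellet, collected on day 6. In WT mice, 2 of the 38 genes (5.26%) rose, Kcnab2 and Kcnip2, where 2.92% of all genes were called and 0.803% rose. In AS mice, 2 of the 38 (5.26%) rose, Kcnn2 and Kcnab2, where 3.77% of all genes were called and 2.03% rose. Averaged over the genotypes, 6 of the 38 (15.8%) were called, against 9.67% of all genes. Kcnab2, Kcnn2, Kcnip2, Kcna5 and Kcna2 rose, where 4.19% of all genes did, and Kcnip3 fell, where 5.48% did. The median of the 38 was 0.07, with 26 positive and 12 negative values, and that of all genes was 0.00088.

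Kcnab2, the most abundant member, had 1063, 926, 1091 and 1084 CPM in the WT vehicle and 1258, 1080, 1284, 1212 and 1278 CPM in the WT CORT mice. AS vehicle mice had 1125, 1056, 1058 and 1093 CPM and AS CORT mice 1336, 1306, 1244, 1328 and 1284 CPM. The AS groups did not overlap, and in WT mice 1 CORT mouse, H5, lay among the vehicle mice. The averaged rise was 18.7% (log2 0.25, SE 0.0394, adjusted p = 0.000382). It was 17.4% for WT (log2 0.23, SE 0.0556, adjusted p = 0.0279) and 20% for AS (log2 0.26, SE 0.0557, adjusted p = 0.00917). The WT call was lost in 5 of the 18 fits without 1 mouse, among them that without the vehicle mouse H4, the lowest library, and without both H4 and H14 (log2 0.18, adjusted p = 0.0715).

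Kcnn2 (SK2) had 60.05, 54.5, 53.4 and 55.3 CPM in WT vehicle and 61.1, 68.7, 58.4, 61.7 and 61.2 CPM in WT CORT mice. It had 56.8, 47.7, 40.9 and 44.7 CPM in AS vehicle and 66.3, 67.3, 60.2, 61.5 and 64.5 CPM in AS CORT mice. The AS groups did not overlap, and in WT mice the highest vehicle mouse exceeded the lowest CORT mouse. In AS mice the gene rose by 34.6% (log2 0.43, SE 0.0743, adjusted p = 0.00179), and averaged over the genotypes by 22.5% (log2 0.29, SE 0.0523, adjusted p = 0.00110). In WT mice the difference was 0.16 (adjusted p = 0.312), and the interaction of 0.27 (SE 0.104, adjusted p = 1) did not pass.

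Kcnip2 (KChIP2) had 251, 279, 267 and 255 CPM in WT vehicle and 311, 291, 338, 303 and 335 CPM in WT CORT mice. It had 248, 230, 263 and 256 CPM in AS vehicle and 251, 259, 302, 301 and 292 CPM in AS CORT mice. The WT groups did not overlap, and 2 of the 5 AS CORT mice lay within the AS vehicle range. Averaged, Kcnip2 rose by 16.3% (log2 0.22, SE 0.0454, adjusted p = 0.00396), and in WT mice by 20% (log2 0.26, SE 0.0642, adjusted p = 0.0300). The WT call was lost in 5 of the 18 fits without 1 mouse, and without both H6 and H17, the vehicle mice with the most choroid plexus transcripts (log2 0.25, adjusted p = 0.189).

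Kcnip3 (KChIP3) moved the opposite way. It had 60.8, 68.2, 61.8 and 62.4 CPM in WT vehicle and 57.1, 63.7, 54.1, 57.1 and 54.4 CPM in WT CORT mice, and 65.7, 67.6, 77.7 and 65.5 CPM in AS vehicle and 64.9, 60.7, 58.3, 56.5 and 56.9 CPM in AS CORT mice. The AS groups did not overlap, and 4 of the 5 WT CORT mice were below all WT vehicle mice. Averaged over the genotypes, Kcnip3 fell by 11.8% (log2 -0.18, SE 0.0437, adjusted p = 0.0116), with differences of -0.14 in WT (adjusted p = 0.257) and -0.22 in AS (adjusted p = 0.0574). The other KChIP genes had averaged effects that did not pass, with Kcnip1 at 0.20 (adjusted p = 0.0973) and Kcnip4 at 0.01 (adjusted p = 0.954).

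Of the Kv1 pores, Kcna5 had 1.56, 2.31, 1.001 and 2.03 CPM in WT vehicle and 2.41, 2.94, 2.08, 3.65 and 1.81 CPM in WT CORT mice, and 1.02, 1.93, 2.06 and 1.14 CPM in AS vehicle and 2.63, 1.99, 2.88, 3.42 and 2.55 CPM in AS CORT mice. The groups overlapped in both genotypes, in AS mice by 1 CORT and 1 vehicle mouse. The averaged rise was 61.1% (log2 0.69, SE 0.186, adjusted p = 0.0228), the largest fold among the 6 called. It was lost without the AS vehicle mouse H19 and without H6 and H17 (log2 0.61, adjusted p = 0.0806). Kcna2 (Kv1.2, an axonal pore subunit) had 185, 188, 220 and 203 CPM in WT vehicle and 202, 243, 215, 228 and 227 CPM in WT CORT mice, and 193, 211, 213 and 187 CPM in AS vehicle and 244, 235, 205, 217 and 211 CPM in AS CORT mice. Its groups overlapped, and the rise of 11.5% (log2 0.16, SE 0.0472, adjusted p = 0.0415) was lost in 10 of the 18 fits without 1 mouse. Kcna6 had 84.9, 72.8, 87.8 and 89.4 CPM in WT vehicle and 64.2, 84.0, 65.6, 89.7 and 70.8 CPM in WT CORT mice, and a median of 98.7 CPM in AS vehicle and 85.5 CPM in AS CORT mice. In AS mice 1 CORT mouse, H7, was above the lowest vehicle mouse, and the averaged difference of -0.18 (SE 0.0636, adjusted p = 0.0796) did not pass.

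**Figure D4:**
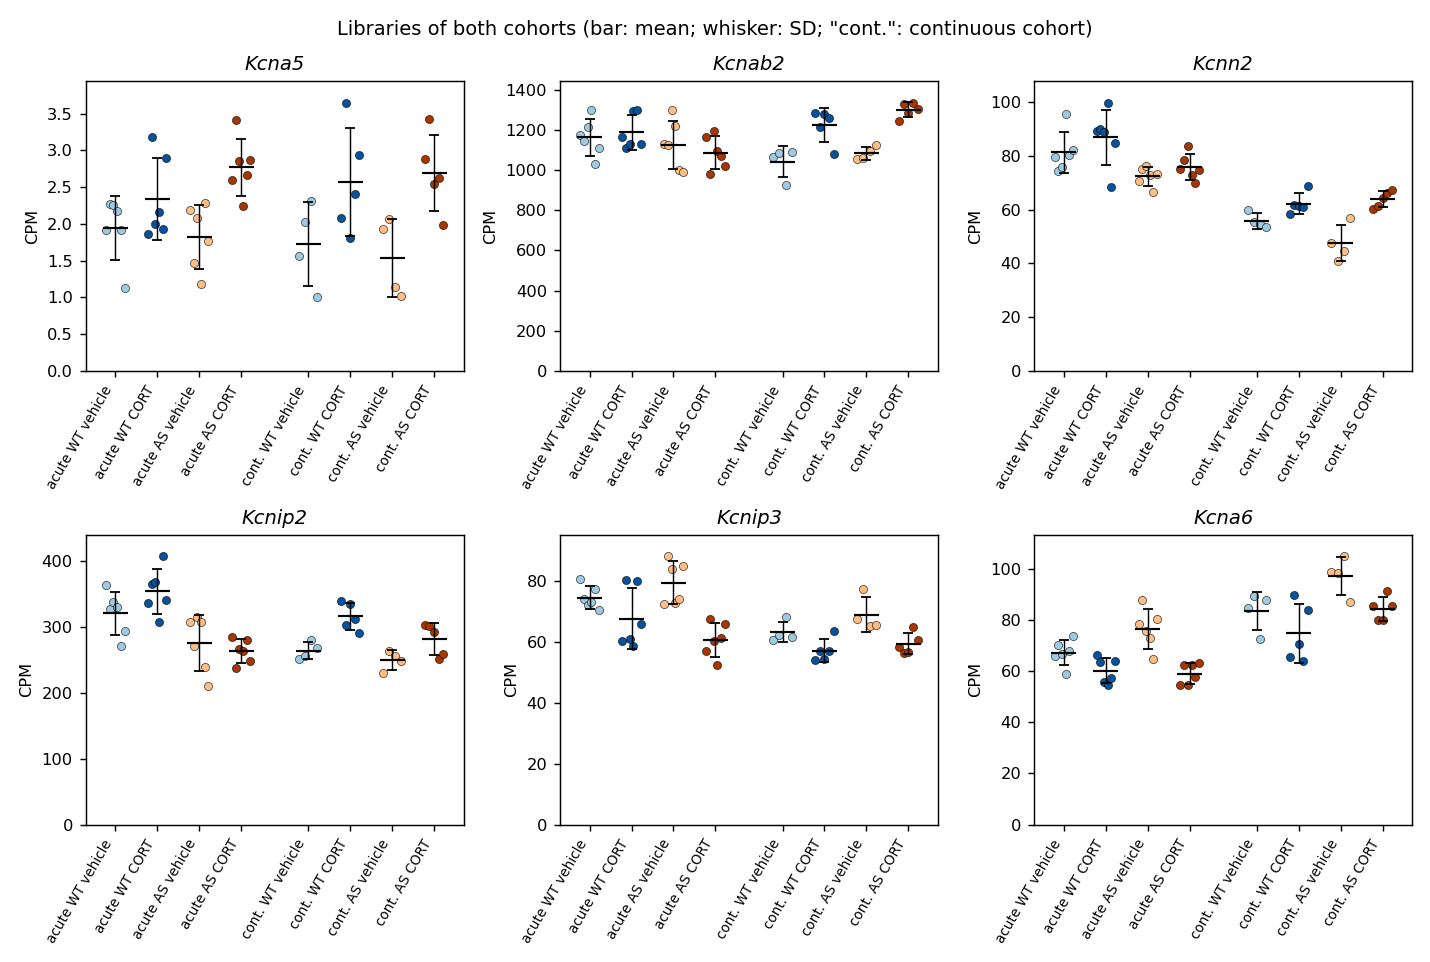
CPM of 6 members in the libraries of all 8 groups of both cohorts (vertical axes from 0), with 1 point per mouse, the group mean as a bar and the SD as a whisker. In the continuous cohort Kcnab2 lies at 1244 to 1336 CPM in AS CORT against 1056 to 1125 CPM in AS vehicle mice, and Kcnip3 and Kcna6 are lower with CORT in the acute AS groups without overlap.

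Between AS and WT mice of the continuous cohort, 0 of the 38 genes passed with vehicle or with CORT in edgeR, and the same held in DESeq2 and limma-voom. The shares of all genes were 0.0134% with vehicle and 0.0401% with CORT, and 4 and 5 of the 38 had an unadjusted p under 0.05, as did 7.34% and 10.2% of all genes. For the interaction, 0 of the 38 and 0% of all genes passed (1 of the 38 and 3.75% of all genes at an unadjusted p under 0.05, 0 of the 38 in DESeq2 and limma-voom). Averaged over treatments, 0 of the 38 passed in edgeR against 0.348% of all genes (0 in DESeq2 and 1 in limma-voom, which called 2% and 2.43% of all genes), and 8 had an unadjusted p under 0.05, as did 12.9% of all genes. Kcnip2, lower in AS CORT mice of the acute cohort, differed by -0.17 between AS and WT CORT mice here (adjusted p = 0.375).

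The cohorts are separate mice, so their CORT effects can be set side by side. Averaged over genotypes, 22 of the 38 genes (57.9%) had the same sign in both cohorts, as did 58% of the 14419 genes tested in both. Over the 38 genes Pearson's r was 0.569 and Spearman's rho 0.452, as a description across genes that share libraries, against 0.433 and 0.277 over all genes. Kcna5 rose in both cohorts and Kcnip3 fell in both. For Kcna5, the acute call was lost with the covariate (0.36, adjusted p = 0.322), and the continuous effect turned to -0.25 (adjusted p = 0.765) with H9 and H13 kept, while Kcnip3 stayed negative and called in both of those fits. Kcnab2, called in the continuous cohort, had an averaged effect of -0.01 (adjusted p = 0.930) after acute CORT, and Kcnip2 of 0.04 (adjusted p = 0.754).

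Between WT and AS mice of the continuous cohort, which share no mouse, 30 of the 38 effects (78.9%) had the same sign (r = 0.765), against 65.3% of all genes (r = 0.604). In all 4 CORT comparisons, 4 of the 38 genes were higher (Kcna5, Kcnk1, Kcnk2 and Kcnn2), where 10.2% of all genes were. A further 7 were lower (Kcna6, Kcnd3, Kcnip3, Kcnj16, Kcnj4, Kcnj9 and Kcnn3), where 11.1% of all genes were. Of these 11, Kcnk2, Kcnd3, Kcnj16, Kcnj4, Kcnj9 and Kcnn3 were called in no comparison. Kcnd3, the Kv4.3 pore, differed by -0.08 and -0.09 after acute and -0.08 and -0.10 after continuous CORT in WT and AS mice.

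Altogether 13 of the 38 genes (34.2%) were called in at least 1 comparison and 25 in none, against 39.1% called in at least 1 of the same comparisons among the 14419 genes tested in both cohorts. The 25 included both listed Kv7 genes (Kcnq3, Kcnq5), whose channels carry the M-current, and all 3 listed EAG genes (Kcnh1, Kcnh3, Kcnh7). Among them were also both listed Kv4 pores (Kcnd2, Kcnd3), Kv2.2 and its modifier (Kcnb2, Kcnv1) and the BK channel Kcnma1. They also included the sodium-activated Kcnt1, the GIRK subunits Kcnj6 and Kcnj9, the Kvβ1 gene Kcnab1 and the Kv1 pores Kcna1 and Kcna4. Errors were wide for some of these: Kcnh7 differed by 0.71 (SE 0.310, adjusted p = 0.270) with continuous CORT in AS mice and by -0.35 (SE 0.176, adjusted p = 0.483) with acute CORT in WT mice. Kcnq5 differed by -0.29 (SE 0.207, adjusted p = 0.348) in acute AS mice.

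The other potassium channel genes give the setting of these 38. Of 62 such genes, 40 were tested, and 6 fell and 0 rose with acute CORT in AS mice, where 9.62% of all genes fell and 8.25% rose. With the covariate 0 of the 40 were called in edgeR, with 4 at an unadjusted p under 0.05. The 6 included Kcnh2 (the Kv11.1 pore, log2 -0.39, adjusted p = 0.00208), Kcnd1 (the Kv4.1 pore, -0.35, adjusted p = 0.00528) and the K2P gene Kcnk13 (-0.59, adjusted p = 0.00840). Between AS and WT CORT mice 9 of the 40 differed, 3 higher and 6 lower (24.9% of all genes), and for the interaction Kcnh2 was the 1 called (-0.43, adjusted p = 0.0384), and with the covariate 0 were called in either (4 and 1 at an unadjusted p under 0.05). Averaged over genotypes, 4 of the 40 were called after acute CORT (7.02% of all genes), 3 of them lower, with Kcnk13 at -0.55 (adjusted p = 0.000846), and 1 with the covariate. After continuous CORT, 3 of the 40 were called (9.67% of all genes): the auxiliary subunit gene Kcne1l fell (-1.21, adjusted p = 1.19e-07), as did Lrrc55, a modulator of BK channels (-0.44, adjusted p = 0.0230), and Kcnab3, the third Kvβ gene, rose (0.37, adjusted p = 0.0101). Kcne1l fell in each genotype (log2 -1.13 in WT and -1.30 in AS), as the 1 gene of the 40 called in WT and 1 of 2 in AS mice. With acute CORT in WT mice 0 of the 40 were called in edgeR, with 4 at an unadjusted p under 0.05.

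Other cation channels were counted in the same way. Of 30 genes of sodium, calcium and HCN channels, 9 were called with acute CORT in AS mice, 1 higher and 8 lower, among them the calcium channel subunits Cacnb1 (-0.35) and Cacng3 (-0.42) and the pacemaker channel Hcn3 (-0.43). All genes were called at 17.9% there, and with the covariate 0 of the 30 were called in edgeR, with 3 at an unadjusted p under 0.05. Averaged over genotypes, 3 of the 30 were called (7.02% of all genes), all lower (Cacng3, Cacnb1 and Hcn3), and 0 with the covariate, with 2 at an unadjusted p under 0.05. After continuous CORT 3 were called (9.67% of all genes), with Scn3b (0.38, adjusted p = 0.00144) and Cacnb2 (0.19, adjusted p = 0.0120) higher and Hcn3 lower (-0.24, adjusted p = 0.0201). Between AS and WT mice after acute CORT 12 of the 30 differed, 4 higher and 8 lower (24.9% of all genes), and 2 were called for the interaction (4.49% of all genes). With the covariate 0 were called in either, with 2 at an unadjusted p under 0.05 in each. With acute CORT in WT mice 0 were called in edgeR, also 0 at an unadjusted p under 0.05.

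Bulk tissue holds many cell types, and fewer cells of a type and less RNA per cell cannot be told apart. Markers moved in several of the same comparisons. The shares of all genes called were 17.9% with acute CORT in AS mice and 24.9% between AS and WT mice after acute CORT. They were 4.49% for the acute interaction and 9.67% for continuous CORT averaged over genotypes. With acute CORT in AS mice, 3 of 6 oligodendrocyte markers fell (Opalin -0.96, Mag -0.72, Mbp -0.67), 2 of 5 markers of pyramidal and granule neurons fell (Slc17a7 -0.33, Neurod6 -0.31), 1 of 7 interneuron markers fell (Slc32a1 -0.39) and 2 of 5 dentate granule cell markers rose (Dsp 1.01, Calb1 0.51). Their sums were 1583 to 3157 CPM in AS CORT against 2331 to 4595 CPM in AS vehicle mice for oligodendrocytes, and 10140 to 12060 against 10220 to 13420 CPM for pyramidal and granule neurons. No listed marker of these types was at 0 in all libraries. Between AS and WT CORT mice, where Kcnip2, Kcnc1 and Kcnn1 were lower, Slc17a7 (-0.29), Camk2a (-0.21), Slc32a1 (-0.42), Mag (-0.66), Mbp (-0.67) and Cspg4 (-0.36) of neurons and the oligodendrocyte lineage were lower too. For the interaction, where Kcnc1 was called, so were Slc17a7 (-0.43) and Cspg4 (-0.37). With the covariate, 0 of the markers of neurons, interneurons, oligodendrocytes and their precursors were called in edgeR in either comparison or for CORT in AS mice, with at most 1 per list at an unadjusted p under 0.05. In the continuous cohort, where Kcnab2, Kcnn2 and Kcnip2 rose, the pyramidal and granule neuron sum was 8994 to 9458 CPM in AS CORT against 8301 to 8953 CPM in AS vehicle mice, and 8765 to 9992 against 8189 to 9125 CPM in WT mice. There 0 of these 5 markers were called in edgeR for averaged CORT, with 1 at an unadjusted p under 0.05, but 1 of 5 dentate granule cell markers (Calb1 0.29) and 1 of 7 interneuron markers (Vip 0.51) rose. Of the oligodendrocyte lineage, 1 of 6 markers (Opalin -1.31) and 1 of 3 precursor markers (Gpr17 -0.95) fell. The part of these shifts in the channel genes was not tested.

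Astrocyte markers were set beside Kcnj10, and their relation to it was not tested. In the continuous cohort, averaged over genotypes, 5 of 6 were called: Aqp4 (-0.85), Gfap (-0.62), Gja1 (-0.29) and Slc1a3 (-0.17) fell and Gjb6 (0.80) rose, and their sum was 1031 to 1235 CPM over CORT mice of both genotypes against 1252 to 1569 CPM over vehicle mice. Kcnj10 differed by -0.10 (SE 0.0508, adjusted p = 0.233) there and Kcnj16, which encodes Kir5.1, its partner in astrocytes, by -0.10 (adjusted p = 0.706). In acute AS mice, where Kcnj10 fell, the summed astrocyte markers were 1194 to 1313 CPM with CORT and 1056 to 1209 CPM with vehicle. There 2 of the 6 were called, Gjb6 (0.67) and Aldh1l1 (0.20), both higher, against 17.9% of all genes, and 1 with the covariate. Gjb6 (0.56) and Aldh1l1 (0.23) were also called higher in acute WT mice, where Kcnj10 was not called. Microglial Cx3cr1 and P2ry12 fell with CORT in both cohorts.

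Single libraries differed in the tissue they held. The choroid plexus markers summed to 1074 CPM in the acute WT vehicle mouse H6, and to 2893 and 1272 CPM in the continuous WT vehicle mice H17 and H6. Without those last 2, 5 of the 6 averaged calls of the continuous cohort held. Low CA1 marker sums marked the continuous vehicle mice H4 (WT) and H14 (AS), with 254 and 321 CPM, and without them all 6 averaged calls held. Both of these fits were added after the data were seen. Thalamic Tcf7l2 fell with continuous CORT as well (-2.11), with summed thalamus markers of 68.6 to 272 CPM in AS vehicle and 74.1 to 86.4 CPM in AS CORT mice. The 272 CPM was that of H14, and the highest sum of the WT vehicle mice, 141 CPM, was that of H4. Both mice were absent from the fit without H4 and H14 described above. The part of thalamic tissue in the result was not tested otherwise.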

How the data were processed

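Total RNA of the left hippocampus (NucleoSpin RNA) was made into stranded mRNA libraries and sequenced as 100-bp paired ends on DNBseq. The authors checked reads with FastQC and MultiQC, aligned them to mm10 with STAR and counted them per gene with HTSeq-count in BioWDL, and the deposited values are raw read counts per Ensembl gene. The strand setting of the counting and the annotation release are not given in the sources used here. Rows that HTSeq-count uses for unassigned reads were kept out of library sizes and tests.

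The 38 members and all other lists were chosen with earlier results of these data known. Genes were tested where at least 3 libraries of a group had more than 20 counts after median-of-ratios scaling, which kept 14611 genes in the acute and 14949 in the continuous cohort. Counts were TMM-normalized and fitted in edgeR 4.0.16 (R 4.3.3) with 1 coefficient per group and the quasi-likelihood F test. P-values were adjusted by Benjamini-Hochberg over all genes tested, and a gene was called at an adjusted p under 0.05. The standard error (SE) was the log2 fold change divided by the square root of F. All p-values in the text are from this fit unless another tool is named. Members named with full values are those called in at least 1 comparison, and of the other channel lists at most the 3 genes with the smallest adjusted p per comparison are named. RPKM used union exon lengths of GENCODE M21 (GRCm38).

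Alternatives were DESeq2 1.42.0, its size factors in edgeR, limma-voom 3.58.1 with quality weights, no filter, offsets for GC content and length (spline with 5 degrees of freedom), a covariate for low-quality reads, reduced AS vehicle groups, all 20 continuous mice, and each mouse left out. Liver libraries were not used here.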

Additional observations from a re-analysis of the deposited data

Results flagged for a closer look

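In groups of 4 to 6 libraries of the 13 members called somewhere, the highest or lowest library stood far from the rest (Dixon's criterion) in 7 of 104 groups, and chance gives about 1 in 20. Kcna2 had 222 CPM in the acute AS CORT mouse H20. Kcna3 had 9.63 CPM in the acute AS CORT mouse H22. Kcna5 had 1.12 CPM in the acute WT vehicle mouse H6, which also had the highest choroid plexus markers of that cohort. Kcnab2 had 926 CPM in the continuous WT vehicle mouse H4. Kcnc1 had 182 CPM in the acute AS CORT mouse H21. Kcnk1 had 153 CPM in the acute WT CORT mouse H8. Kcnn2 had 95.6 CPM in the acute WT vehicle mouse H4.

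Kcnc1 was also picked out because its acute CORT effect differed between the genotypes, by -0.31 on the log2 scale in the interaction term of edgeR (adjusted p = 0.0399). All AS CORT mice lie in the upper set of low-quality reads, and with a covariate for that set the term was -0.21 (adjusted p = 0.891).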

How the results depend on the processing

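All counts here are of the 38 genes called. In the acute cohort, the covariate for low-quality reads left 0 for CORT in AS mice, 0 for AS against WT with CORT and 0 for the interaction. Reducing the AS vehicle group to H17 and H18 gave 0 for CORT in AS mice, 1 for AS against WT with vehicle and 0 for the interaction, and reducing it to H13 to H16 gave 4 for the interaction and 5 for averaged CORT, where 19.2% and 16.2% of all genes were called. Limma-voom gave 10 for AS against WT with CORT and 6 for the interaction, where it called 36.5% and 22.9% of all genes, and 1 for AS against WT averaged over treatments in the continuous cohort (2.43% of all genes). The interaction had 0 without the filter, 0 with GC and length offsets and 2 without H8, where 0.905%, 0.00684% and 9.27% of all genes were called. With all 20 continuous mice, 0 were called for CORT in WT, 0 for CORT in AS and 2 for averaged CORT (1.2%, 1.47% and 6.99% of all genes), and Kcna5 turned to -0.25. Without H4 and H14, or without H6 and H17, both chosen after the data were seen, 1 was called for CORT in WT (3.56% and 1.22% of all genes). The cause of these changes was not tested.

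Leaving out each mouse in turn gave 3 to 8 for acute CORT in AS mice, 4 to 9 for AS against WT with acute CORT, 0 to 2 for the interaction and 2 to 3 for averaged acute CORT. It gave 0 to 2 for continuous CORT in WT, 2 to 3 in AS mice, 4 to 8 averaged, and 0 to 1 for AS against WT averaged. Shares of all genes also moved when 1 mouse was left out. Without the acute mouse H8, 21.6% were called for CORT in AS mice, 28.7% for AS against WT with CORT and 9.27% for the interaction. With all acute mice these shares were 17.9%, 24.9% and 4.49%. For the other fits they were not set beside the counts. DESeq2 and its size factors kept all 17 acute and all 10 continuous calls of single members. Depth limits Kcna5, with as few as 19 counts. No paired analysis was possible because each mouse gave 1 hippocampal library and no mouse is in 2 groups, so a shared number pairs no samples.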
